A study of Homo sapiens with 8 samples.

Results

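The cyclin-dependent kinase (CDK) inhibitors and the p53 regulators MDM2 and MDM4 were examined in HCT116 cells treated with *F. nucleatum*. The genes were chosen by symbol: CDKN1A, CDKN1B, CDKN1C, CDKN2A, CDKN2B, CDKN2C, CDKN2D, MDM2 and MDM4. All 9 were among the 19475 entries of the mRNA table, and they carried 47 of the 70751 m6A peaks in the 4 peak lists. These 47 peaks merged into 17 of 22001 regions. HCT116 is a human colorectal carcinoma cell line. One group of cultures received PBS (Control) and the other received *Fusobacterium nucleatum* (FUSO) at a multiplicity of infection of 100, both for 2 h, and no other agent or allele separated them. Poly(A) RNA was fragmented, a portion was pulled down with an antibody to N6-methyladenosine (m6A, a methylated adenosine found within many mRNAs), and the pulled-down (IP) and unselected (input) fragments were sequenced. Each treatment had 2 input and 2 IP libraries, which the study calls biological replicates of 1 cell line, so p-values measure the spread between these cultures only.

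CDK inhibitors stop the cell cycle by binding the cyclin-CDK complexes that release E2F factors from the retinoblastoma protein. The Cip/Kip proteins p21 (CDKN1A), p27 (CDKN1B) and p57 (CDKN1C) bind several cyclin-CDK complexes, whereas the INK4 proteins p16 (CDKN2A), p15 (CDKN2B), p18 (CDKN2C) and p19 (CDKN2D) bind CDK4 and CDK6. CDKN2A also encodes ARF, which binds MDM2, the ubiquitin ligase that marks p53 for destruction, and MDM4 is the partner of MDM2 that blocks p53 activity. CDKN1A and MDM2 are classical targets of p53, which HCT116 cells retain in its wild-type form.

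The expression table gave FPKM (fragments scaled to transcript length and to the library's mapped fragments), so levels of different genes can be compared per length, but the number of reads behind a value was unknown. The relative depth of the input libraries, set to 1 for Control 1, was estimated at 0.91 to 1.24. Each estimate was the most common FPKM ratio to Control 1 among genes of very low level, and rested on 7 to 13 genes. The lists held 17039 to 18365 peaks each, and the depth of the IP libraries was unknown. Of 10 markers of colorectal epithelium, 6 had a mean of at least 1 FPKM, with keratins KRT8, KRT18 and KRT19 highest. CEACAM5 was listed at 0 in all 4 libraries, and VIL1, CDH17 and LGALS4 were at 0.251 FPKM or less in each. The summed level of the 10 markers, most of it from the keratins, was 4799 to 5175 FPKM in Control and 4356 to 4724 FPKM in FUSO. Of 6 leukocyte and 4 endothelial markers none reached a mean of 1 FPKM, and of 6 fibroblast markers only COL1A1 did, with a list sum of 3.82 to 4.58 FPKM in Control and 5.18 to 5.85 FPKM in FUSO. The leukocyte markers summed to 0.345 FPKM or less in every library, and CD3E was listed at 0 in all of them. The endothelial markers summed to between 0.0651 and 0.197 FPKM, with CDH5 at 0. Among the fibroblast markers COL1A2, DCN and LUM were at 0.

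In mammalian mRNA, m6A lies most often at the A of GGAC or a close variant of these letters. The sequences below are those on which the m6A results turn, read 5′ to 3′ on the mRNA strand from GRCh37 (hg19), with each GGAC in capitals. The first is the coding stretch in exon 2 of CDKN1A over which peaks of Control 1, FUSO 1 and FUSO 2 lay (chr6:36651905-36652204, + strand). It is shown because its GGAC sites lay under different libraries.
CDKN1A exon 2: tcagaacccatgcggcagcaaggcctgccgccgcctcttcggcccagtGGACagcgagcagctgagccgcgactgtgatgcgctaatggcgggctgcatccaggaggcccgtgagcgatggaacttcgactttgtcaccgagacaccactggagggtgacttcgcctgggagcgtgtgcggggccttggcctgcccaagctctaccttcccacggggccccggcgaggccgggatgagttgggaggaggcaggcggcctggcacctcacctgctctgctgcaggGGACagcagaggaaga
The next 4 are sites of the 3′UTR region of MDM2, the strongest peak of the group, on the + strand at chr12:69235716-69235740, chr12:69235836-69235860, chr12:69236023-69236047 and chr12:69236040-69236064, the last pair overlapping.
MDM2 3′UTR site 1: agtttctttgGGACccatctaccct
MDM2 3′UTR site 2: aaggttaggtGGACtaaagcattct
MDM2 3′UTR site 3: tcaagaaaaaGGACtacggaaagtt
MDM2 3′UTR site 4: ggaaagttcaGGACatcaaagaagt
The following are single sites under peaks in all 4 lists, each in a different coding sequence. They are the MDM4 site in exon 10 (chr1:204515947-204515971, + strand), a CDKN1B site in exon 1 (chr12:12870892-12870916, + strand), a CDKN2C site in exon 2 (chr1:51439836-51439860, + strand) and the CDKN2B site in exon 2 (chr9:22005978-22006002, - strand), whose GAC is the last codon before the TGA stop codon.
MDM4 exon 10: atgacctggaGGACtctaagtcctt
CDKN1B exon 1: agttaacccgGGACttggagaagca
CDKN2C exon 2: accataagggGGACaccgcctgtga
CDKN2B exon 2 and stop codon: cagccacgggGGACtgacgccaggt

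The first question was which of these mRNAs differed between FUSO and Control cells. Of the 9 genes, CDKN1A rose and CDKN2A fell, and the other 7 did not pass the test. All 9 passed the filter of a mean of 1 FPKM. The test was limma on log2(FPKM + 1), a scale that understates the change of low genes, with p-values adjusted over all 11088 genes tested. Over those genes 0.667% were called higher (74) and 0.135% were called lower (15). Since the cells were measured in bulk, fewer cells expressing a gene and less RNA per cell cannot be told apart.

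CDKN1A, the p53 target that blocks G1 to S progression, was the most abundant of the group at 85.7 and 89.9 FPKM in Control 1 and 2. Its level was 126.4 and 125.3 FPKM in FUSO 1 and 2. Both FUSO libraries lay above both Control libraries, by far more than the gap within either pair. The mean rose from 87.8 ± 2.99 to 125.8 ± 0.779 FPKM (SD, n = 2 each), which was 1.43-fold, and the log2 fold change was 0.52 (SE 0.0542, 95% interval 0.38 to 0.65, limma adjusted p = 0.0244). The 3 genes whose pattern over the 4 libraries was most like that of CDKN1A were TICAM1, SPTSSB and OVOL1, at a root mean square distance of 0.0242 to 0.0306 on the centred log2 scale, and 22 genes lay within 0.05. The adjusted p of CDKN1A was 0.301 without FUSO 1 and 0.276 without FUSO 2, at log2 fold changes of 0.51 and 0.52, and the gene remained called without either Control library. It was 0.0566 with no filter on low genes and 0.0791 without the trend of variance on level.

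CDKN2A moved the other way. It was 27.6 and 26.7 FPKM in Control 1 and 2 and 16.9 and 15.2 FPKM in FUSO 1 and 2. Both FUSO libraries lay well below both Control libraries. The mean fell from 27.2 ± 0.627 to 16.1 ± 1.18 FPKM (SD, n = 2 each), a change of -40.8%, and the log2 fold change was -0.72 (SE 0.0753, 95% interval -0.91 to -0.54, limma adjusted p = 0.0238). The value is per gene, so the p16 and ARF mRNAs, which start at different first exons and share later ones, cannot be told apart in it. The nearest patterns were those of SNX6, ARFIP2 and TMBIM4 at distances of 0.0633 to 0.0703, and no gene lay within 0.05. The adjusted p was 0.161 without FUSO 1 and 0.202 without FUSO 2, at log2 fold changes of -0.79 and -0.65, and 0.0663 with no filter. The call held without either Control library.

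**Figure D1:**
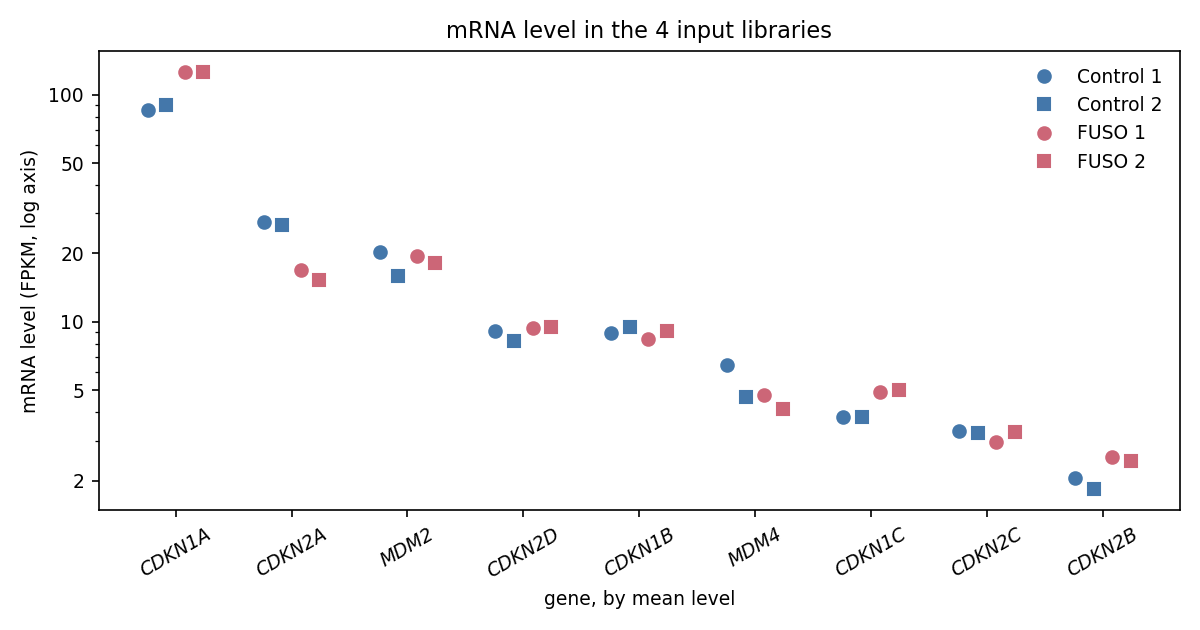
mRNA level (FPKM, log axis) of each of the 9 genes in Control 1 and 2 (blue) and FUSO 1 and 2 (red), 1 point per input library, with genes in order of their mean level. The FUSO points of CDKN1A (126.4 and 125.3) sit above its Control points and those of CDKN2A (16.9 and 15.2) sit below.

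The other Cip/Kip inhibitors were lower in level. CDKN1C, an imprinted gene in many tissues, was 3.83 and 3.82 FPKM in Control and 4.93 and 5.00 FPKM in FUSO, with no overlap between groups (log2 difference 0.31, 95% interval 0.11 to 0.50, adjusted p = 0.234). CDKN1B, the inhibitor that accumulates in resting cells, was 8.91 and 9.52 FPKM in Control and 8.39 and 9.11 FPKM in FUSO. Its groups overlapped (log2 difference -0.07, 95% interval -0.27 to 0.14, adjusted p = 0.731).

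Among the INK4 genes other than CDKN2A, no call was made. CDKN2B, the neighbour of CDKN2A on chromosome 9 and a known target of TGF-beta signalling, was 2.05 and 1.83 FPKM in Control and 2.54 and 2.43 FPKM in FUSO (log2 difference 0.25, 95% interval 0.01 to 0.48, adjusted p = 0.356). CDKN2D was 9.10 and 8.27 FPKM in Control and 9.43 and 9.49 FPKM in FUSO (log2 difference 0.11, 95% interval -0.09 to 0.31, adjusted p = 0.558). In both genes the FUSO libraries lay above the Control libraries, narrowly so for CDKN2D. CDKN2C was 3.31 and 3.23 FPKM in Control and 2.95 and 3.28 FPKM in FUSO, with overlapping groups (log2 difference -0.06, 95% interval -0.28 to 0.17, adjusted p = 0.805). The direction of CDKN2C was set by FUSO 1, since without that library its log2 difference was 0.002.

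MDM2 was 20.3 and 15.9 FPKM in Control and 19.5 and 18.2 FPKM in FUSO. Both FUSO values lay between the Control values (log2 difference 0.07, 95% interval -0.24 to 0.36, adjusted p = 0.835), and the difference was -0.10 without Control 2. MDM4 was 6.44 and 4.65 FPKM in Control and 4.79 and 4.13 FPKM in FUSO, again with overlap (log2 difference -0.25, 95% interval -0.63 to 0.13, adjusted p = 0.505), and the difference was -0.05 without Control 1 and -0.45 without Control 2. The wide intervals of these genes came with a gap between the Control libraries that was larger than that between the group means.

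Across the 9 genes, 4 had an unadjusted p under 0.05 (background 13.5% of all genes tested), and in 5 the groups did not overlap (background 47.2%). The median log2 fold change was 0.07, against 0.01 over all 11088 genes. In Control cells the order of levels was CDKN1A, CDKN2A, MDM2, CDKN1B, CDKN2D, MDM4, CDKN1C, CDKN2C and CDKN2B. CDKN1B and CDKN2D had overlapping Control values and so did not differ beyond their spread. In FUSO cells MDM2 (18.2 and 19.5 FPKM) lay above CDKN2A (15.2 and 16.9 FPKM), whereas in Control cells CDKN2A (26.7 and 27.6 FPKM) lay above MDM2 (15.9 and 20.3 FPKM). MDM4 and CDKN1C also changed places, since both MDM4 values were the higher in Control cells and both CDKN1C values in FUSO cells. Neither of these genes was called, and in FUSO 1 they were close, at 4.79 FPKM for MDM4 and 4.93 FPKM for CDKN1C.

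The pathway around these genes was read from 4 lists. They were chosen with earlier results of these data known, so their counts and medians are descriptive only. Of 27 p53 target genes other than the 9, 26 were tested, 3 rose, none fell and 23 did not pass. The median log2 fold change was 0.14, against 0.014 over all genes tested. Of the 26, 20 were above 0, a share that was not counted over all genes. An unadjusted limma p under 0.05 was seen in 10 of the 26 (background 13.5% of all genes tested). BTG2, an antiproliferative gene, was 5.98 and 6.65 FPKM in Control and 14.8 and 14.2 FPKM in FUSO (log2 fold change 1.09, SE 0.0813, adjusted p = 0.00852). PMAIP1, which encodes the pro-apoptotic protein NOXA, went from 27.9 and 27.0 FPKM to 43.9 and 43.8 FPKM (log2 fold change 0.66, adjusted p = 0.0137). PLK3, a stress-responsive kinase, went from 31.6 and 31.9 FPKM to 48.0 and 47.4 FPKM (log2 fold change 0.57, adjusted p = 0.0190). In all 3 the FUSO libraries stood clear of the Control libraries. None of the 3 was called without FUSO 1 or without FUSO 2. The log2 fold changes were then 1.061 and 1.115 for BTG2, 0.657 and 0.66 for PMAIP1, and 0.565 and 0.582 for PLK3. PLK3 was also not called without the trend (limma adjusted p = 0.0539).

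The p53 targets that did not pass ranged from differences as large as those of called genes to almost none. GDF15, a secreted stress cytokine, was 56.7 and 46.8 FPKM in Control and 82.7 and 77.4 FPKM in FUSO (log2 difference 0.63, adjusted p = 0.1004). GADD45A, a growth arrest gene, was 34.4 and 30.2 FPKM in Control and 46.5 and 50.2 FPKM in FUSO (log2 difference 0.57, adjusted p = 0.0783). RRM2B, the p53-inducible ribonucleotide reductase subunit, had the largest difference (1.53), but its Control values were 6.04 and 1.41 FPKM against 11.2 and 10.5 FPKM in FUSO (adjusted p = 0.288). These 3 genes, and those that follow in this paragraph, were picked after their values were seen. BAX (41.4 and 40.05 FPKM in Control, 39.2 and 40.6 FPKM in FUSO), a pore-forming death protein, and CCNG1 (38.7 and 31.1 FPKM, 35.6 and 33.0 FPKM) overlapped between groups, with log2 differences of -0.03 and -0.02. They are p53 targets of the same list, and with adjusted p of 0.855 and 0.968 no change was called.

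No gene was called in 2 of the lists. Of 23 regulators of p53 and MDM2, 22 were tested, with a median log2 difference of -0.04. In this list 1 gene had an unadjusted limma p under 0.05 (background 13.5% of all genes tested). The largest values were 0.22 for CSNK1A1, the casein kinase that works with MDM4, and -0.43 for RCHY1, a ubiquitin ligase for p53 (adjusted p = 0.490 and 0.524). Of 25 cyclins, CDKs and genes of the RB-E2F axis, 24 were tested, with a median of -0.03. Of these, 2 had an unadjusted limma p under 0.05, against the same background. The largest values were 0.44 for E2F6, a repressor of E2F targets, and -0.22 for E2F3 (adjusted p = 0.481 and 0.450). CDK4, the kinase that the INK4 proteins bind, was 98.2 and 104.9 FPKM in Control and 100.2 and 100.7 FPKM in FUSO (log2 difference -0.01). These 4 largest values depended on which Control library was kept. CSNK1A1 was 0.40 (adjusted p = 0.0478) without Control 2 and 0.03 (adjusted p = 0.860) without Control 1. E2F6 was 0.83 (adjusted p = 0.0105) without Control 2 and 0.05 (adjusted p = 0.830) without Control 1, since it was 7.70 FPKM in Control 1, 13.97 FPKM in Control 2 and 14.5 and 14.4 FPKM in FUSO. RCHY1 was -0.06 without Control 2, -0.81 without Control 1, -0.20 without FUSO 1 and -0.67 without FUSO 2. E2F3 was -0.35 without Control 2 and -0.08 without Control 1.

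Of 25 genes for the turnover and modification of CDK inhibitors, 24 were tested, 1 rose, 1 fell and 22 did not pass (median 0.02). An unadjusted limma p under 0.05 was seen in 5 of the 24 (background 13.5% of all genes tested). KLF6, a zinc-finger factor known to activate CDKN1A, rose from 25.5 and 26.0 FPKM to 41.0 and 41.4 FPKM (log2 fold change 0.66, SE 0.0578, adjusted p = 0.0137). ID1, a helix-loop-helix inhibitor known to repress CDKN2A, fell from 235.2 and 219.1 FPKM to 153.8 and 150.8 FPKM (log2 fold change -0.57, SE 0.0573, adjusted p = 0.0201). In both genes the groups were far apart relative to the pairs. Without FUSO 1 the adjusted p was 0.196 for KLF6 and 0.246 for ID1, and without FUSO 2 it was 0.192 and 0.260. ID1 was also not called with no filter (0.0613) or without the trend (0.0676). SKP2, the ubiquitin ligase subunit for p27, was 7.42 and 7.69 FPKM in Control and 7.61 and 7.59 FPKM in FUSO (log2 difference 0.01).

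**Figure D2:**
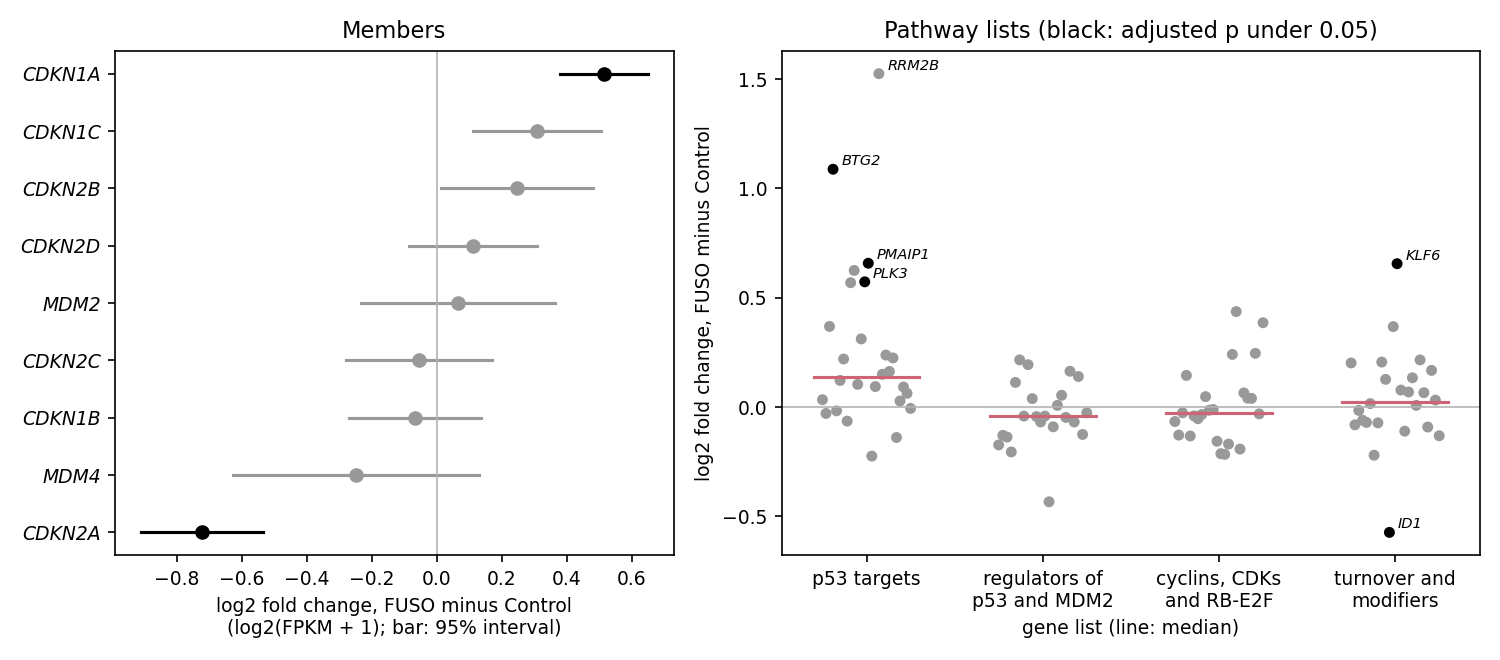
Left, log2 fold change of FUSO over Control on log2(FPKM + 1) for the 9 genes with 95% intervals; right, the same quantity for every tested gene of the 4 pathway lists, with a red line at each list median. Black marks a limma adjusted p under 0.05: CDKN1A (0.52) and CDKN2A (-0.72) on the left, and BTG2, PMAIP1, PLK3, KLF6 and ID1 on the right.

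The second question was whether m6A peaks on these mRNAs appeared, disappeared or moved. Peaks that touched on the same strand were merged over the 4 lists, and each gene's regions were numbered along the mRNA. A region was called lost when both Control lists and no FUSO list had a peak there, and gained in the reverse case. Of the 17 regions, 7 had a peak in all 4 lists (41.2%, against 51.5% of all regions), 6 had a peak in 1 list (35.3%, against 25.6%), none was lost (background 2.64%) and 1 was gained (5.88%, background 2.38%). The lists held 11, 12, 13 and 11 peaks on the 9 genes in Control 1, Control 2, FUSO 1 and FUSO 2. These covered 5919, 7202, 6849 and 6041 nt, a mean of 6560.5 ± 907 nt in Control and 6445 ± 571 nt in FUSO (SD, n = 2 each). The difference of -115.5 nt was smaller than the spread between replicates (exact permutation test, two-sided, p = 1, where 2 against 2 libraries allow no p below 0.333). Its sign depended on single lists, at -757 nt without Control 1, 526 nt without Control 2, -519.5 nt without FUSO 1 and 288.5 nt without FUSO 2.

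CDKN1A, the most abundant of the mRNAs, had 1 short peak per list, and the mean of 196 peak nt was above that of 40.4% of the 1051 genes within 2-fold of its mean level of 106.8 FPKM. Its coding region peak was present in Control 1 (chr6:36651905-36652145), FUSO 1 (chr6:36651995-36652205) and FUSO 2 (chr6:36652055-36652205), with deposited p of 2.8e-08, 3.5e-08 and 2.8e-08, and Control 2 had none there. Control 2 instead had a peak of 181 nt at the transcript start (chr6:36646478-36646658, deposited p of 8.5e-07), of which 85 nt lay on the canonical transcript, and the other lists lacked it. In the exon 2 sequence printed above, the first GGAC lay under the Control 1 peak only and the second under the FUSO 1 and FUSO 2 peaks only. The 91 nt shared by the 3 peaks (chr6:36652055-36652145) held no GGAC. With 1 Control list on which the position rests, a shift between treatments was not testable. No CDKN1A region had a peak in all 4 lists, whereas 64.1% of those 1051 genes had at least 1 such region. Here and below, comparison genes were matched on mRNA level and not on transcript length.

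CDKN2A had the only gained region. It lay in the 3′UTR at chr9:21968018-21968107 on the - strand, in the last exon of the canonical p16 transcript, with a 90 nt peak in FUSO 1 (deposited p of 0.00098) and a 60 nt peak in FUSO 2 (0.00076). These peaks stood at 86.8% and 84.7% of their lists when ordered from the lowest p, so most peaks were stronger. The region held no GGAC and had a GC content of 31.1%. Control 2 alone had a 149 nt peak in the first exon of the p16 mRNA (chr9:21974684-21974832, deposited p of 0.00081), also without GGAC, and Control 1 had no peak on the gene. None of these peaks remained when only those with p of at most 1e-05 were kept, and the gained count was then 0. Among 3450 genes within 2-fold of the level of CDKN2A, 72.9% had a region in all 4 lists.

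CDKN1B had 1 long region over the coding sequence and both flanks (chr12:12870619-12874278, 3 exons, + strand). Its peak spanned 1009 nt in Control 1, 1069 nt in Control 2 and 921 nt in each FUSO list. The deposited p was 2e-31 and 2.5e-47 in Control and 6.3e-25 and 1.6e-21 in FUSO. Both FUSO peaks were thus shorter and of higher p than both Control peaks, with no overlap. All 7 GGAC of the region lay under the peak in all 4 lists, 6 in the coding sequence and 1 in the 3′UTR. CDKN1C had a single 60 nt peak, in Control 1 only (chr11:2906669-2906728, deposited p of 0.0035, no GGAC). At its level of 4.39 FPKM, 69.2% of 3872 genes had a region in all 4 lists.

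The INK4 genes other than CDKN2A each had a region in all 4 lists. CDKN2B carried its peak from the coding sequence across the stop codon into the 3′UTR (chr9:22004968-22006226, - strand), with p of 1.6e-16 and 2.5e-26 in Control and 2e-22 and 2.5e-22 in FUSO. These p-values overlapped between groups, and 6 GGAC lay under all 4 peaks, among them the one at the stop codon printed above. CDKN2B is a weakly expressed gene with a mean of 2.21 FPKM. Its mean of 1199.25 peak nt per list was above that of 87.7% of 3000 genes within 2-fold of that level. Those genes were not matched on transcript length, and the CDKN2B peaks covered 28.8% to 33.5% of its canonical 3853 nt. A 91 nt 5′UTR peak on CDKN2B (chr9:22009072-22009162, deposited p of 0.00059) was found in FUSO 2 only.

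CDKN2C had the most regions, 4. Its coding region peak (chr1:51436019-51439951, 2 exons, + strand) had p of 7.9e-34 and 1.3e-35 in Control and 1.6e-35 and 6.3e-29 in FUSO, with overlap. Both Control peaks began at nt 103 of the canonical transcript and both FUSO peaks at nt 133, so that a GGAC in the 5′UTR at nt 115 lay under the Control peaks only, while the other 4 lay under all. The ends of these peaks varied more within groups, at nt 550 and 610 in Control and nt 640 and 550 in FUSO. Peaks of CDKN1B, CDKN2B and CDKN2D also began further along in both FUSO lists, for CDKN2B at nt 529 in both Control lists and nt 619 and 589 in FUSO. The MDM2 3′UTR peak began earlier in both FUSO lists, and starts of the MDM2 and MDM4 coding peaks overlapped. Such edges do not resolve a single site, and how often starts differ between groups over all regions was not counted. The other 3 regions lay upstream of the canonical transcript (chr1:51434576-51435024, chr1:51435083-51435143 and chr1:51435322-51435720). The first pair lay wholly within the 5′UTR of 2 longer coding transcripts, and no annotated coding transcript held the whole of the last. In these 3 regions Control 1 had no peak and Control 2 had one in each. FUSO 1 had a peak in 2 of them, FUSO 2 in 1, so the presence of these peaks differed within the Control pair.

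CDKN2D had 1 region over its coding sequence, stop codon and 3′UTR (chr19:10677257-10679270, 2 exons, - strand). It was called as 3 separate peaks in Control 1, 1 peak of 771 nt in Control 2, 2 peaks in FUSO 1 and 1 peak of 386 nt in FUSO 2. The lowest p was 7.1e-07 and 1.3e-12 in Control and 9.8e-06 and 3.5e-05 in FUSO, with no overlap. Of its 7 GGAC, 1 in the 3′UTR lay under a peak in all 4 lists, and the first coding pair lay under the Control 2 peak only.

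MDM2 carried the strongest m6A peak of the group. The peak lay in the 3′UTR at chr12:69235228-69236484 (+ strand) and began 3394 nt from the start of the canonical transcript of 7490 nt. Its p was 1e-226 and 1e-244 in Control and 1e-256 and 1e-199 in FUSO, and it stood within the top 1.36% to 1.59% of every list. Its 5 GGAC, of which 2 were GGACT, lay under the peak in all 4 lists. The exons of other annotated genes share part of this region: 133 nt with CPM and 241 nt with a long non-coding RNA on the opposite strand, and 439 nt with a processed pseudogene on the same strand. CPM was at 0.729 to 0.914 FPKM, and its 7 peaks all lay outside the region. Of 18 coding transcripts of MDM2, 1 holds the whole region.

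The other MDM2 region covered the 3′ part of the coding sequence (chr12:69222698-69233584, 4 exons, + strand). Its p was 2.5e-43 and 7.9e-50 in Control and 1e-59 and 1.6e-62 in FUSO, lower in both FUSO lists than in both Control lists, with 2 GGAC under all 4 peaks. In all, MDM2 had a mean of 1863.5 peak nt per list, above 92.9% of 3716 genes within 2-fold of its level of 18.5 FPKM. Those genes were not matched on transcript length, and the MDM2 peaks covered 22.8% to 27.2% of its canonical 7490 nt. MDM4 also had its region over the 3′ part of the coding sequence (chr1:204512015-204518821, 4 exons, + strand), with p of 6.3e-95 and 7.9e-78 in Control and 2.5e-66 and 7.9e-54 in FUSO. There both FUSO values were higher than both Control values, opposite to MDM2, and 2 GGAC lay under all 4 peaks. A 151 nt 3′UTR peak on MDM4 (chr1:204520621-204520771, deposited p of 0.0003) was found in FUSO 1 only.

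**Figure D3:**
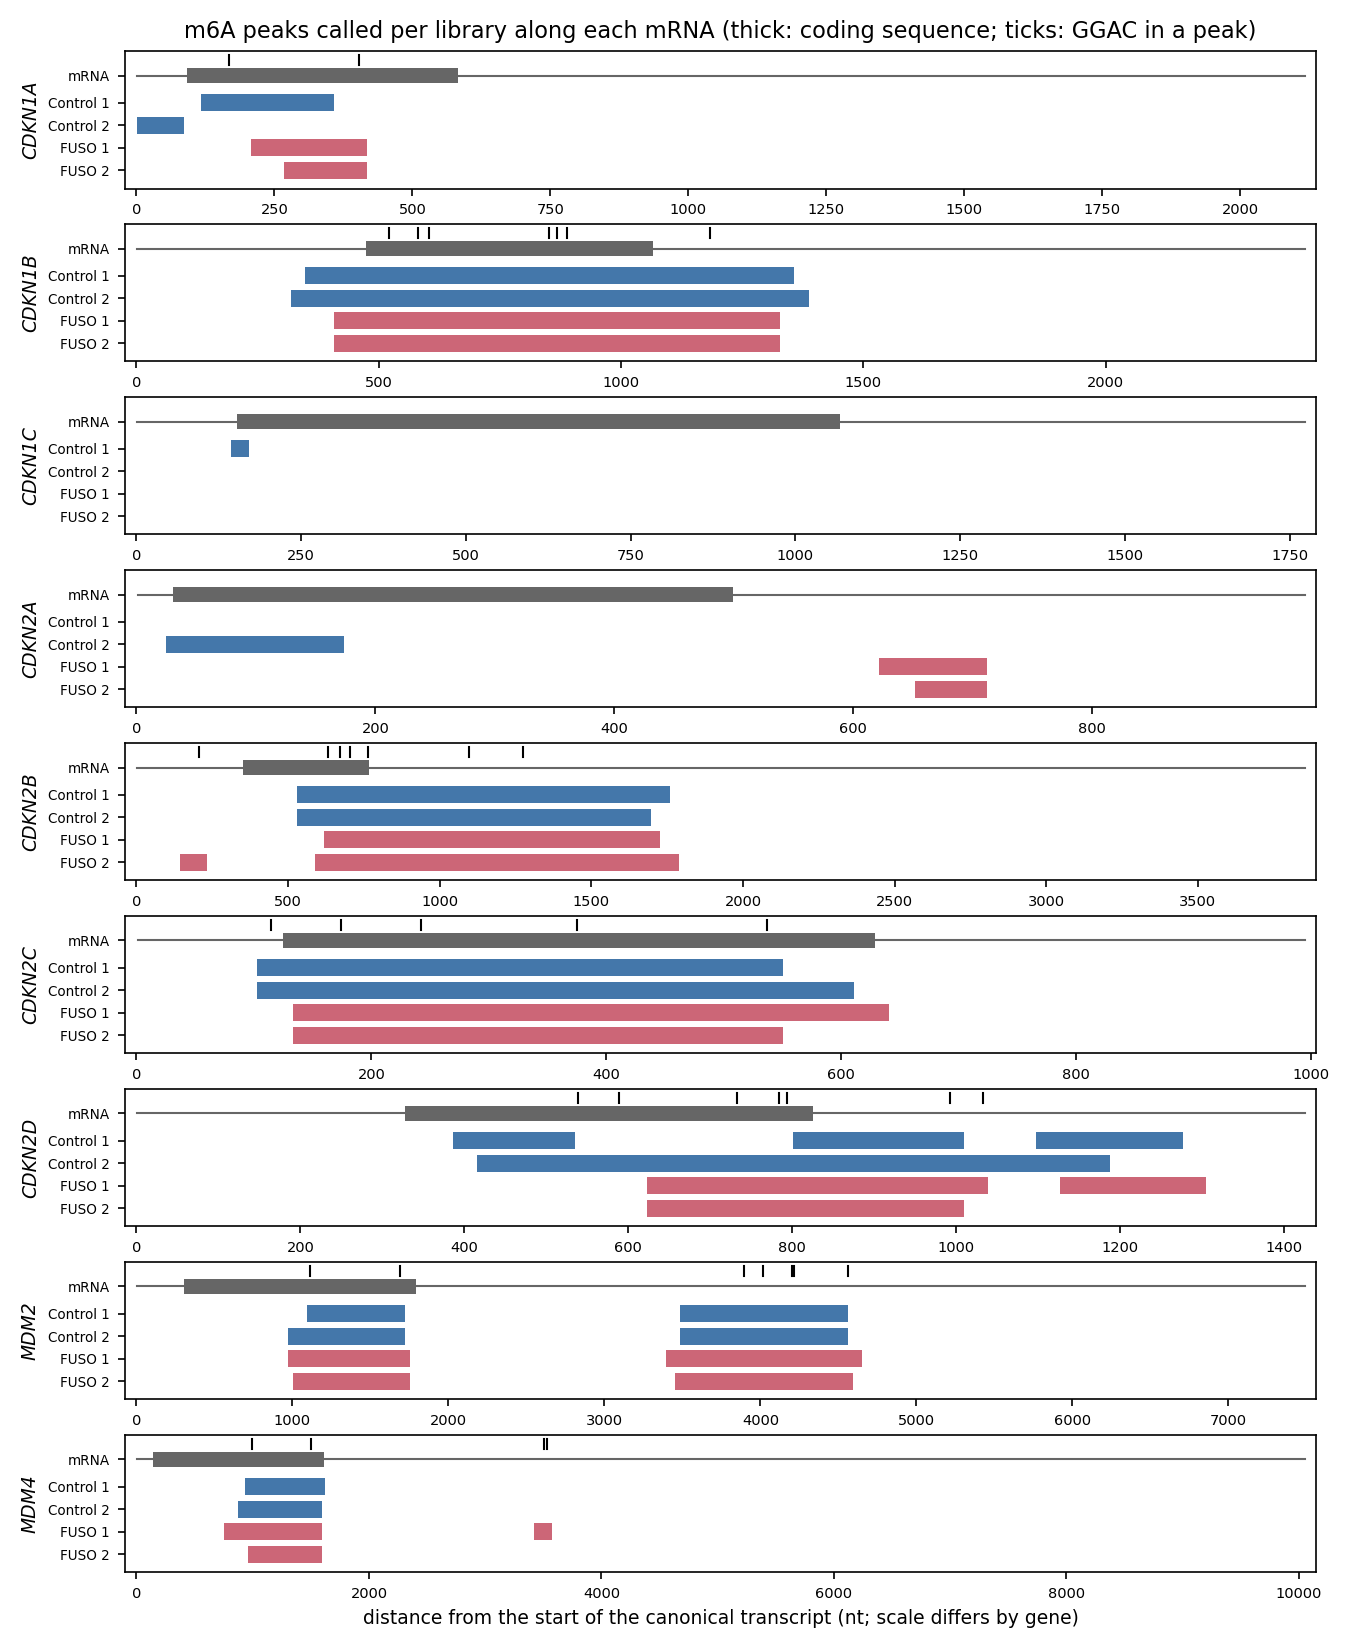
Peaks of Control 1 and 2 (blue) and FUSO 1 and 2 (red) along the canonical transcript of each gene, in nt from its start, with the coding sequence as a thick bar and ticks at each GGAC under a peak. The 3 upstream regions of CDKN2C are not on this transcript and are not drawn. The CDKN1A coding peak is missing in Control 2, the CDKN2A peaks in the 3′UTR are those of FUSO 1 and 2, and the MDM2 and MDM4 coding peaks lie near the end of the coding sequence in every list.

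Since a p-value depends on depth, the peaks were also ranked within their list, where 0% is the lowest p. The rank takes no account of the level of the mRNA, on which a peak p-value may also depend, so it does not measure methylation. For the CDKN1B region the rank was 20.9% and 15.3% in Control and 26.8% and 27.7% in FUSO. For CDKN2D it was 56.9% and 42.1% in Control and 64.8% and 68.2% in FUSO. For MDM4 it was 6.09% and 8.41% in Control and 10.1% and 11.2% in FUSO. All 3 ranked weaker in both FUSO lists. The coding region of MDM2 ranked stronger in FUSO, with 15.6% and 14.4% in Control and 11.6% and 9.16% in FUSO. Mean mRNA levels differed in FUSO by -5.03% for CDKN1B, 8.88% for CDKN2D, -19.5% for MDM4 and 4.18% for MDM2, none of them called. Whether mRNA level set these ranks was not tested. The CDKN2B (25.6% to 34.1%), CDKN2C (19.5% to 21.4%) and MDM2 3′UTR (1.36% to 1.59%) regions overlapped between groups. Hence 4 of the 7 regions did not overlap, against 38.1% of the 11341 regions with a peak in all lists. The median change in rank was 0.90 percentage points in the 7 and -0.20 in all. With 2 lists per group a test of a single region has only 3 splits and cannot reach 0.05, so none was run.

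**Figure D4:**
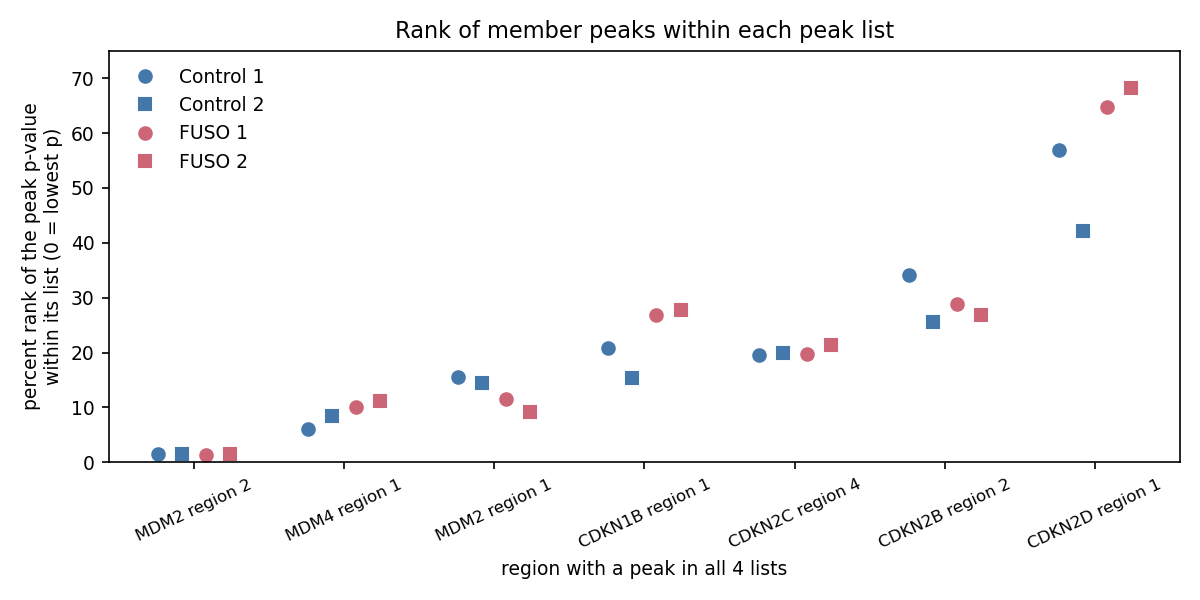
Percent rank of the peak p-value within its own list (0 is the lowest p) for the 7 regions with a peak in all 4 lists, with 1 point per library. CDKN1B, CDKN2D and MDM4 lie higher (weaker) in FUSO (red) than in Control (blue), the MDM2 coding region lies lower, and the MDM2 3′UTR region stays below 1.59% or at it in all 4 lists.

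By position, 12 of the 17 regions could be placed on the canonical transcript by their midpoint. Of these, 1 was in the 5′UTR, 6 in the coding sequence, 1 within 100 nt of the stop codon and 4 in the 3′UTR, against 4.89%, 45.1%, 15.8% and 34.2% of all placed regions. GGAC was searched on the mRNA strand only and was present in 14 of the 17 regions, against 72.8% of all regions, with 49 sites in total. Regions without it were the CDKN1C region and both CDKN2A regions. These were short, and GGAC was present in 26.3% to 54.0% of regions of a length within 25% of theirs.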

How the data were processed

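The 8 samples were grouped by their labels as Control or FUSO, input or IP, 2 each. The authors trimmed reads (cutadapt in the methods, Trim Galore 0.3.3 in the submitters' processing notes) and aligned them to hg19 with HISAT2 2.1.0. The deposited FPKM were computed by the authors with StringTie from the input libraries, per gene; the annotation and strandedness are not given in the sources used here, so reads of antisense transcripts could not be told apart. The deposited peak lists, 1 per replicate, gave per peak 1 score of at most 0.012, taken here as the authors' p-value for IP against input. The methods name MACS2 with Fisher's exact test, whereas the layout with exon blocks is that of exomePeak, so the caller is uncertain. The lists hold no fold enrichment.

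The limma package (version 3.58.1, R 4.3.3) was fitted with lmFit and eBayes with trend to log2(FPKM + 1) of all genes whose mean reached 1 FPKM, Benjamini-Hochberg over all genes tested, called at 0.05; all adjusted p-values are from limma. The study's methods name DESeq2, which FPKM do not allow. Alternatives were pseudocount 0.1, no filter, no trend, quantile normalization, GC correction, replicate block and leaving out each library. Peaks were merged when exon blocks shared at least 1 bp on 1 strand; alternatives were 50% reciprocal overlap, p of at most 1e-05 and leaving out each list. Block starts were 0-based (97.9% of 39801 inner edges matched annotated exon edges) and are printed 1-based. A region was placed on the canonical transcript if the transcript held 90% of its bases or more (GENCODE release 44 lifted to GRCh37, with sequence from that assembly, Python 3.11.15, pysam 0.24.0). Scripts were tested on simulated data. Members, gene lists and tests were chosen with earlier results of these data known. Named were all members, every list gene called or else the largest rise and fall, and the 3 genes most like each called member. Genes named outside this rule are given as context.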

Additional observations from a re-analysis of the deposited data

How the results depend on the processing

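Over all genes, 74 were called higher and 15 lower. With no filter these were 35 and 5, with 0 members called higher and 0 lower and 0 turnover genes lower. Without the trend 9 genes were called lower, 0 members higher and 0 turnover genes lower. Leaving out 1 input library gave 13 to 185 genes higher and 3 to 99 lower, 0 to 1 members higher and 0 to 1 lower, 0 to 6 p53 targets higher, 0 to 1 regulators of p53 and MDM2 higher, 0 to 1 cyclin, CDK and RB-E2F genes higher, and 0 to 1 turnover genes in each direction. The left-out arm then had 1 library, assumed to vary like the other group. MDM2 ranged from -0.10 (without Control 2) to 0.23 and CDKN2C from -0.11 to 0.002 (without FUSO 1), neither called. Pseudocount 0.1, quantile normalization, GC correction and the replicate block left CDKN1A and CDKN2A called. No effect shared by replicates of the same number was seen (correlation of the within-group differences 0.024 over 11088 genes). This cannot tell whether cultures of the same number were prepared together. With the replicate block 1 member was higher and 1 lower. Quantile normalization moved the median log2 difference of all genes from 0.014 to -0.006, and GC correction moved it to 0. For m6A, 0 regions were gained at p of at most 1e-05, and leaving out 1 list gave 0 to 3 lost, and 2 gained whichever list was left out. By the start of the region or on the longest coding transcript 4 regions were in the 5′UTR, and by the start 0 were at the stop codon. The depth of the IP libraries was unknown, so a peak missing from 1 list may lie under its threshold. The cause of these differences was not tested.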
